A study of Rattus norvegicus with 24 samples.

Results

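The synaptic vesicle release machinery was examined as 43 genes, whose proteins fill, tether, prime, fuse and retrieve the vesicles of nerve terminals. A probe was counted as a member if its RefSeq accession matched 1 of the 43 symbols, a match that used no measured value. The 43 symbols themselves were chosen with earlier results of these data known. In this way 34 genes had 38 of the 33849 rat probes, and 24 genes had a probe bright enough to be tested. The series names 4012 genes in this way, and the members were set against 3114 other tested probes with a RefSeq name. Syt1, Syt7, Sv2c, Cplx1, Rab3a, Rab3b, Unc13a, Sncb and Doc2a had no matching probe and were not analysed here.

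The retinas came from male Sprague Dawley rats, killed 1 or 3 months after an intraperitoneal injection. Diabetic rats had received 65 mg/kg of streptozotocin (STZ), which destroys insulin-producing cells, and no insulin afterwards. Control rats had received the citrate vehicle alone. The 4 groups were control and STZ retinas at 1 month, and the same at 3 months, with 6 CodeLink arrays in each, which read 1 color. The strain, the sex, the fast before injection and the frozen whole retina were common to all groups, and the model is one of untreated, insulin-deficient diabetes. The 1 and 3 month arrays come from separate rats, so duration of diabetes, age and array processing cannot be told apart between time points.

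Neurotransmitter leaves a nerve terminal when SNARE proteins on the vesicle, chiefly a Vamp, zip up with a syntaxin and a SNAP-25 type protein on the target membrane. Synaptotagmins sense calcium and trigger fusion, complexins hold the SNAREs ready, and Nsf with its adaptor Napa takes the spent complexes apart so that they can be used again. In the retina, photoreceptors and bipolar cells release glutamate continuously at ribbon synapses, where syntaxin 3 serves in place of syntaxin 1. Bassoon anchors the ribbon in photoreceptors. Amacrine cells use conventional synapses with syntaxin 1a.

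Levels are given as scaled intensity, the background-subtracted brightness of a spot in multiples of the median rat probe of its array. Probes whose median over all 24 arrays was a scaled intensity above 0.554, the detection limit here, were tested. A gene was called at an adjusted p under 0.05 from limma and at least a 1.2-fold difference. The within-array rank, the percentile of a probe among all rat probes of its array, was tested as a second scale because no rescaling of an array can move it.

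The arrays differed in ways that touch every result below. The interquartile range of log2 intensity was 3.36 to 3.67 on the 1 month control arrays, 3.40 to 3.66 on the 1 month STZ arrays, 1.48 to 2.23 on the 3 month control arrays and 2.07 to 2.70 on the 3 month STZ arrays. The median brightness was 284, 194, 232 and 148 in the same order, before any scaling. The array of 3 month control rat 2 correlated with the rest of its group at a median of 0.842, against 0.916 to 0.979 for every other array. All 8 rod markers with a probe were bright enough to be tested, with a summed scaled intensity between 239 and 646 over the 24 arrays, and rods are the most numerous cells of the retina. Lens markers moved with diabetes at 3 months, when 8 of 9 were called higher and their sum ran from 168 to 429 on control and from 584 to 997 on STZ arrays. Müller glia markers were higher for 7 of 10 and microglia markers for 3 of 4, where 50.5% of all tested probes were higher and 3.55% lower. Of the neuronal markers, 3 of 8 rod, 1 of 2 cone, 1 of 1 bipolar, 4 of 7 amacrine and horizontal and 3 of 6 ganglion cell genes were called higher and 1, Onecut1 of the amacrine and horizontal list, lower, with median log2 differences of 0.32, 0.54, 0.67, 0.46 and 0.49. In whole retina, fewer cells of a type and less RNA per cell cannot be told apart, and the part of these shifts in the results was not tested.

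At 3 months, Amph, Syt5, Vamp3, Syp, Stx1a, Bsn, Stx4, Slc17a6 and Sv2a were called higher in STZ retinas and Stx7 and Snap29 lower. That is 9 of 24 members higher, where 50.5% of all tested probes were higher, and 2 lower, where 3.55% were lower. The median log2 fold change was 0.29 over the members and 0.44 over all tested probes, and 19 of 24 members were above 0. As single 3 month arrays were left out, the members' median ran from 0.19 (without STZ 2) to 0.41 (without control 6). That of all tested probes ran from 0.32 (without control 2) to 0.53 (without control 6). At 1 month 0 members were called, where 0.00908% of all probes were, and the members' median was -0.02 against 0.01 for all probes. Both scaling and the array of 3 month control rat 2 moved these counts. After quantile normalization 5 members were higher (24.6% of all probes) and 4 lower (6.92%), with a median of -0.078 against 0.16 for all probes. The higher ones were then Amph (1.55), Bsn (1.41), Syt5 (0.88), Rph3a (0.80) and Syt11 (0.65), and the lower ones Stx7 (-1.54), Snap29 (-0.97), Napa (-0.95) and Vamp2 (-0.43). Without 3 month control rat 2, 5 members were higher and 2 lower by the median scaling (37.6% and 2.07% of all probes).

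**Figure D1:**
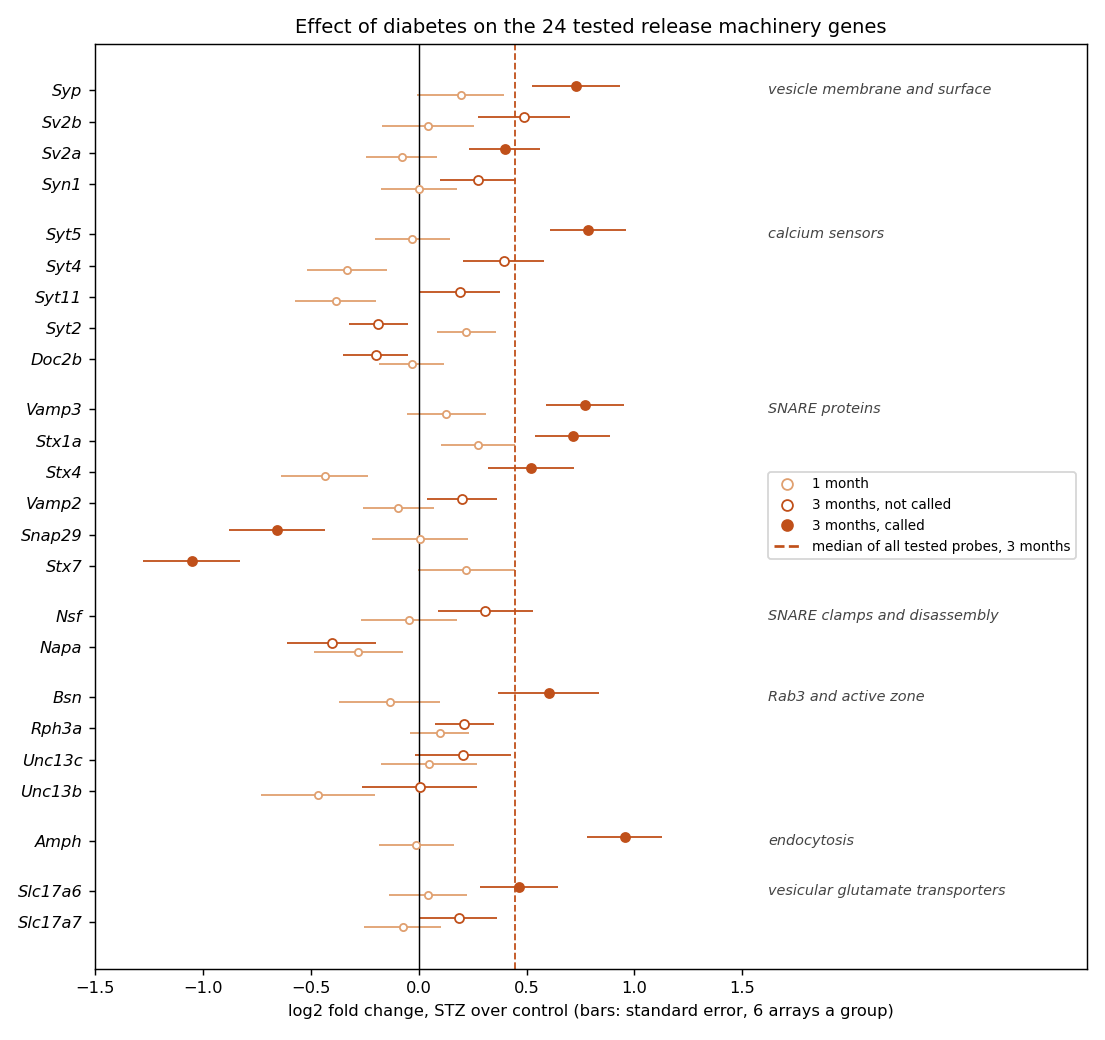
Log2 fold change of STZ over control retinas for the 24 tested genes, grouped by role, with 1 month as pale open circles and 3 months as dark circles, filled where called; bars are standard errors and the dashed line is the median of all tested probes at 3 months (0.44). Amph lies farthest right at 0.95 and Stx7 farthest left at -1.05, and of the filled circles 9 lie to the right of 0 and 2 to the left.

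Among proteins of the vesicle membrane and surface, 4 genes were tested and 2 were called higher at 3 months (50.5% of all tested probes). Syp encodes synaptophysin, an abundant protein of the vesicle membrane. Its scaled intensity ran from 14.4 to 45.5 (median 30.7) in 3 month controls and from 39.4 to 61.4 (median 50.5) in 3 month STZ retinas. At 1 month it ran from 19.98 to 36.2 (median 30.1) in controls and from 29.3 to 40.2 (median 33.01) in STZ retinas. The 3 month groups overlapped, with some controls as high as the lower STZ retinas. The log2 fold change was 0.73 ± 0.20 (standard error, adjusted p = 0.00534, limma), and the rank stayed near the top of the array in both groups, with medians of 99.7 and 99.7. After quantile normalization the Syp difference turned to -0.076 (adjusted p = 0.734, limma). Sv2b, a transporter-like vesicle glycoprotein, ran from 4.52 to 13.9 (median 9.18) in 3 month controls and from 9.15 to 15.8 (median 11.4) in STZ retinas, with a difference of 0.49 ± 0.21 that missed the threshold (adjusted p = 0.0554, limma). At 1 month its levels ran from 13.3 to 24.9 (median 19.6) and from 14.9 to 23.9 (median 20.01). The Sv2b ranges overlapped at both time points. Its 3 month difference was 0.31 without 3 month control 2. It was called higher without 3 month control 5 or 6 or without 3 month STZ 1 or 4. Sv2a, its close relative and the target of the drug levetiracetam, was called higher by 0.40, but the difference was -0.19 after quantile normalization and -0.14 with array spread as a covariate. The call was also lost without 3 month control 1, 2 or 3 or without 3 month STZ 2, 3, 5 or 6, and the dimmer second probe of Sv2a gave 0.15 (not called) with a rank gain of 8.26 points that was called. Syn1, a synapsin that ties vesicles to actin, had 0.27 and on its second probe 0.04, neither called. Syn2 was under the detection limit, with a median scaled intensity of 0.450 over all 24 arrays. Its medians at 3 months were 0.621 in controls and 0.545 in STZ retinas.

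Of 5 tested calcium sensors, Syt5 alone was called on the log2 scale, where 50.5% of all tested probes were called higher at 3 months. Syt5 is a synaptotagmin that binds calcium. It ran from 0.684 to 1.35 (median 0.945) in 3 month controls and from 1.48 to 2.24 (median 1.58) in 3 month STZ retinas. At 1 month it ran from 1.69 to 3.33 (median 2.30) in controls and from 1.86 to 2.58 (median 2.37) in STZ retinas. Every 3 month STZ retina was above every 3 month control, while the 1 month groups overlapped fully. The difference at 3 months was 0.78 ± 0.17 (adjusted p = 0.00121, limma), and that at 1 month -0.03 ± 0.17. Syt4, an atypical synaptotagmin with weak calcium binding, had 0.39 at 3 months (not called), Syt11, another of that kind, 0.19, Syt2, a fast calcium sensor, -0.19, and Doc2b, a high-affinity sensor, -0.20. Syt3 was under the limit, with a median scaled intensity of 0.435.

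The SNARE proteins held both directions, with 3 of 6 tested genes higher (50.5% of all tested probes) and 2 lower (3.55%). Stx1a, the syntaxin of conventional synapses, ran from 1.49 to 3.55 (median 2.33) in 3 month controls and from 3.105 to 4.39 (median 4.08) in STZ retinas. At 1 month it ran from 2.95 to 4.85 (median 3.79) and from 3.99 to 5.18 (median 4.57). The groups overlapped at both time points, and the 3 month difference was 0.71 ± 0.17 (adjusted p = 0.00222, limma), or 0.31 after quantile normalization, where it was not called (adjusted p = 0.137, limma). Vamp3, also called cellubrevin, is a Vamp of recycling endosomes found in most cells. It ran from 5.02 to 11.3 (median 9.52) in 3 month controls and from 12.6 to 16.7 (median 14.7) in STZ retinas, and at 1 month from 7.13 to 15.3 (median 9.74) and from 9.28 to 12.6 (median 11.1). All 3 month STZ retinas exceeded all controls, by 0.77 ± 0.18 in the fit (adjusted p = 0.00191, limma), and the 1 month ranges overlapped. Quantile normalization left 0.16 for Vamp3, not called (adjusted p = 0.377, limma). Vamp2, the main Vamp of synaptic vesicles, had 0.20 (adjusted p = 0.291, limma) on the log2 scale, and after quantile normalization it was called lower at -0.43 (adjusted p = 0.0338, limma).

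Stx4, a plasma membrane syntaxin best known outside nerve terminals, ran from 2.25 to 5.60 (median 3.72) in 3 month controls and from 3.91 to 6.77 (median 5.29) in STZ retinas. At 1 month the order of the medians was the other way, with 3.59 to 5.64 (median 4.68) in controls and 2.45 to 4.58 (median 3.44) in STZ retinas. Both pairs of groups overlapped. The effect was 0.52 ± 0.20 at 3 months (adjusted p = 0.0310, limma) and -0.44 ± 0.20 at 1 month, where it was not called. The 3 month call was lost without 3 month control 2 or 3 or without 3 month STZ 2, 5 or 6. The Stx4 difference was 0.027 after quantile normalization (adjusted p = 0.921, limma) and -0.20 with array spread as a covariate (adjusted p = 0.827, limma).

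Stx7 and Snap29 are SNAREs of endosomes and of the path to the lysosome rather than of the nerve terminal alone. Stx7 had 2.06 to 7.12 (median 2.54) in 3 month controls and 1.31 to 1.77 (median 1.52) in 3 month STZ retinas. At 1 month it had 0.852 to 1.2997 (median 1.12) in controls and 1.07 to 1.64 (median 1.28) in STZ retinas. Every 3 month STZ retina lay under every 3 month control, 2 controls stood well above the other 4, and the 3 month STZ values lay close to those of 1 month. The difference was -1.05 ± 0.22 at 3 months (adjusted p = 0.000878, limma) and 0.22 ± 0.22 at 1 month, and without 3 month control 2 it was -0.82. Snap29 had 1.01 to 3.85 (median 1.2001) in 3 month controls against 0.705 to 1.10 (median 0.926) in STZ retinas, and 0.4901 to 0.908 (median 0.678) against 0.579 to 0.762 (median 0.687) at 1 month. The highest Snap29 value belonged to 3 month control 2, and the 3 month groups overlapped. Its difference of -0.66 ± 0.22 (adjusted p = 0.0169, limma) came to -0.37 without that array (adjusted p = 0.0389, limma), so this 1 retina moved its size by over 1.5 times. Snap25, Stx3 and Vamp1 were under the limit over all 24 arrays, with median scaled intensities of 0.256, 0.165 and 0.457. At 1 month Snap25 was at most 0.148 and Stx3 at most 0.068. In 3 month controls Snap25 ran from 0.617 to 0.910 and Stx3 from 0.606 to 0.917, all above the limit of 0.554. In 3 month STZ retinas they ran from 0.364 to 0.982 and from 0.263 to 0.733. Stx3, the syntaxin of ribbon synapses, had the lowest of the dim members at 3 months, -0.68 (adjusted p = 0.0833, limma, with no filter on dim probes).

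Nsf, the ATPase that pulls SNARE complexes apart, and Napa, the adaptor alpha-SNAP that recruits it, were not called on the log2 scale. Napa had 2.65 to 7.10 (median 3.46) in 3 month controls and 2.16 to 3.89 (median 2.65) in STZ retinas. At 1 month it had 3.84 to 6.03 (median 4.61) and 2.50 to 5.01 (median 3.97). Its groups overlapped at both times, and 3 month control 2 was again the highest. The difference was -0.40 ± 0.21 (adjusted p = 0.0957, limma), and -0.21 without that array. Nsf had 0.31 (adjusted p = 0.232, limma), and from 0.17 to 0.42 as single 3 month arrays were left out. Cplx2, a complexin, was under the limit with a median of 0.424.

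Of the Rab3 and active zone genes, Bsn was called higher and Rph3a, Unc13b and Unc13c were not. Bsn encodes Bassoon, the giant scaffold of the active zone. It ran from 0.113 to 0.534 (median 0.381) in 3 month controls and from 0.449 to 0.580 (median 0.524) in STZ retinas, and from 1.10 to 1.53 (median 1.28) and 0.962 to 1.53 (median 1.15) at 1 month. At 3 months it exceeded the detection limit on 0 of 6 control and 1 of 6 STZ arrays, so its difference lies in dim signal. The effect was 0.60 ± 0.24 (adjusted p = 0.0337, limma), and without 3 month control 2, the lowest of all, it was 0.28 (adjusted p = 0.0949, limma). The Bsn call was also lost without 3 month STZ 1, 3, 5 or 6. Rph3a, a Rab3 effector called rabphilin, had 0.21, and the priming factors Unc13b and Unc13c (Munc13 proteins) 0.01 and 0.20. Rims1, Rims2 and Pclo, further scaffolds of the active zone, were under the limit with medians of 0.397, 0.506 and 0.333 over all 24 arrays. Rims2 had medians above it at 3 months, 0.643 in controls and 0.600 in STZ retinas.

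Amph, the amphiphysin that binds curved membrane and brings dynamin to vesicles being retrieved, had the largest increase of the 24 genes. It ran from 0.332 to 0.865 (median 0.620) in 3 month controls and from 1.00 to 1.39 (median 1.15) in 3 month STZ retinas. In 1 month retinas it ran from 1.72 to 2.70 (median 1.77) in controls and from 1.71 to 2.34 (median 1.91) with STZ. All 3 month STZ retinas were above all 3 month controls and under every 1 month retina. The difference was 0.95 ± 0.17 at 3 months (adjusted p = 0.000330, limma) and -0.01 ± 0.17 at 1 month. Dnm1, the dynamin of nerve terminals, was under the limit with a median of 0.339.

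Both vesicular glutamate transporters were tested. Slc17a6 (VGLUT2), known from ganglion cells, ran from 3.24 to 7.48 (median 5.74) in 3 month controls and from 5.87 to 8.51 (median 8.10) in STZ retinas, and from 3.77 to 7.88 (median 6.11) and 5.75 to 6.93 (median 5.93) at 1 month. The groups overlapped at both times. Its difference of 0.46 ± 0.18 (adjusted p = 0.0336, limma) was lost without 3 month control 2 or 3 or without 3 month STZ 1, 2, 3 or 5, and its second probe gave 0.38, not called. Quantile normalization turned it to -0.079 (adjusted p = 0.697, limma). Slc17a7 (VGLUT1), the transporter of photoreceptors and bipolar cells, had 0.19 (adjusted p = 0.376, limma).

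**Figure D2:**
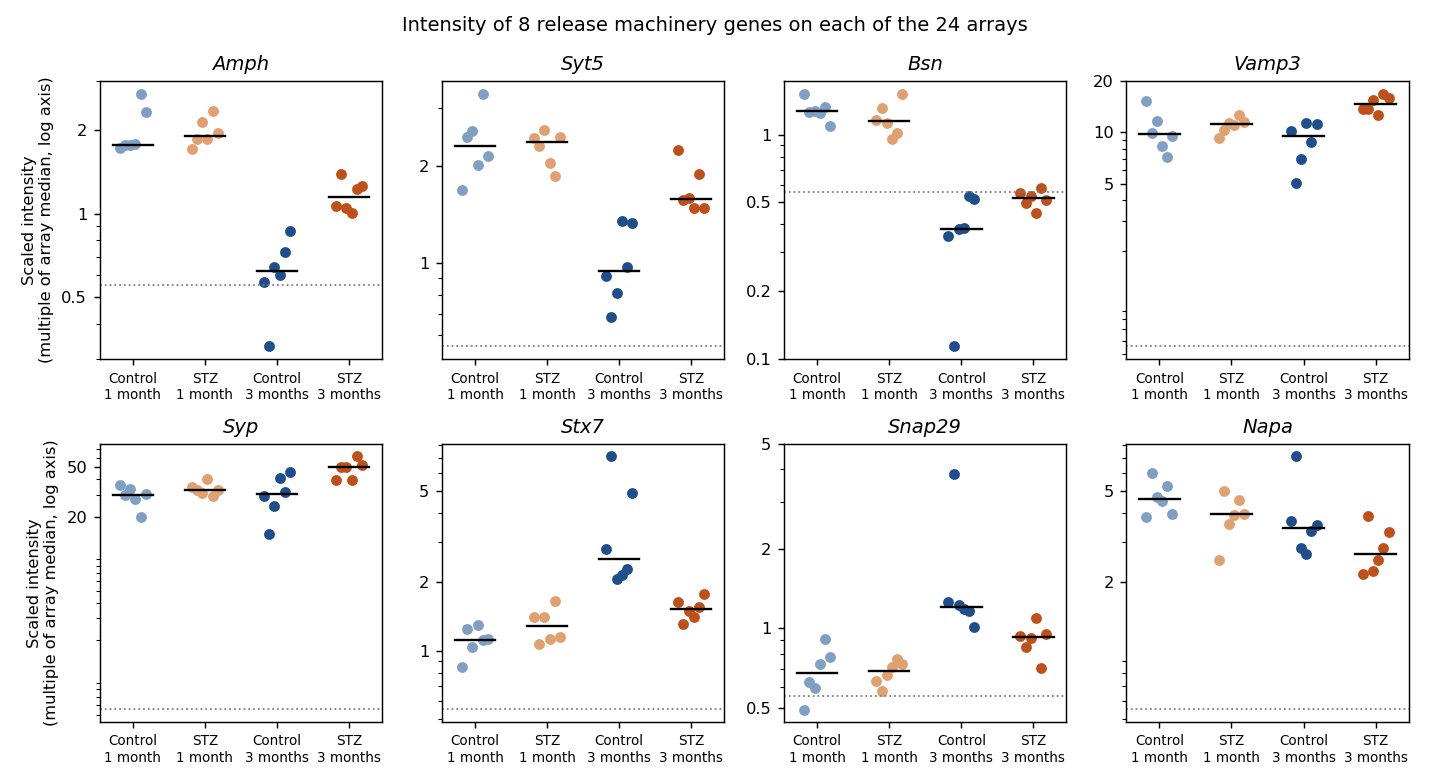
Scaled intensity (log axis, multiples of the array median) of 8 members on each of the 24 arrays, with a dot for each array, a line for the group median and a dotted line at the detection limit of 0.554. For Amph, Syt5 and Vamp3 every 3 month STZ dot lies above every 3 month control dot and for Stx7 below. The array of 3 month control rat 2 is the lowest dot of its group for Amph, Syt5, Vamp3 and Bsn. It is the highest for Stx7, Snap29 and Napa.

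The 3 month STZ and control arrays did not overlap for Amph, Syt5 and Vamp3 (STZ above) and for Stx7 (STZ below). These are 3 of 24 members above, where 9.49% of all tested probes were, and 1 below, where 0.681% were. On leaving out each array in turn, Amph, Syt5, Vamp3, Syp and Stx1a stayed called higher and Stx7 and Snap29 lower. With the interquartile range of each array as a covariate, limma called 0 probes at 3 months, while 1934 had an unadjusted p under 0.05, among them Syt5, Stx7 and Amph of the members.

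On the rank scale fewer members were higher. Amph, Syt5, Bsn, Syt11 and Rph3a were called higher (5 of 24, against 24.1% of all tested probes) and Stx7, Snap29 and Napa lower (3 of 24, against 6.54%). The members' median rank difference was -0.61 percentile points against 2.05 over all tested probes, and 8 of 24 were positive. Without 3 month control 2 these medians were -1.17 and 0.56. As single 3 month arrays were left out, the members' median ran from -1.23 (without STZ 2) to -0.076 (without STZ 4). The rank of Amph ran from 9.71 to 44.2 (median 23.2) in 3 month controls and from 50.1 to 58.7 (median 53.7) in STZ retinas, a gain of 28.01 ± 3.76 points (adjusted p = 2.26e-05, limma). These groups did not overlap. Syt5 gained 16.0 ± 3.72 points, from a median of 47.1 to 62.9 (adjusted p = 0.00262, limma). Stx7 ran from rank 74.4 to 97.8 (median 79.7) in controls and from 57.2 to 63.6 (median 61.6) in STZ retinas, a loss with no overlap that the fit put at -20.8 ± 2.88 points (adjusted p = 2.96e-05, limma). Snap29 differed by -15.8 ± 4.46 points and Napa by -10.8 ± 2.86, and without 3 month control 2 these were -10.1 and -8.26, each still called.

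Gains of rank by Bsn (15.1 points), Syt11 (11.7) and Rph3a (11.3) arose low on the array, where their 3 month control medians were at percentiles 7.22, 22.5 and 11.6. Rph3a was above the detection limit on 1 of 6 control and 2 of 6 STZ arrays at 3 months. The vesicle and terminal proteins Syp, Sv2a, Sv2b, Vamp2, Vamp3, Slc17a6, Slc17a7, Stx1a and Nsf were not called on this scale by the probe that stood for each gene (the second probe of Sv2a was). The rank differences of these probes lay between -2.40 points (Slc17a7) and 4.41 points (Stx1a). All but Stx1a and Slc17a7 were in the brightest of the 4 signal bins described below, where rank had little room to rise. In that bin 4.38% of the other RefSeq-named probes were called higher on rank and 1.67% lower. Their median rank difference was 0.15 points. All 8 rank calls held without each 3 month array in turn, without 3 month control 4 Stx1a was added above, and without 3 month control 5 Syt2 was added below. When the rank was taken among the tested probes alone, Amph and Syt5 were higher, and Syt2, Snap29, Stx7 and Napa lower. The shares of 24.1% and 6.54% belong to the rank among all rat probes and cannot be set beside these calls.

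**Figure D3:**
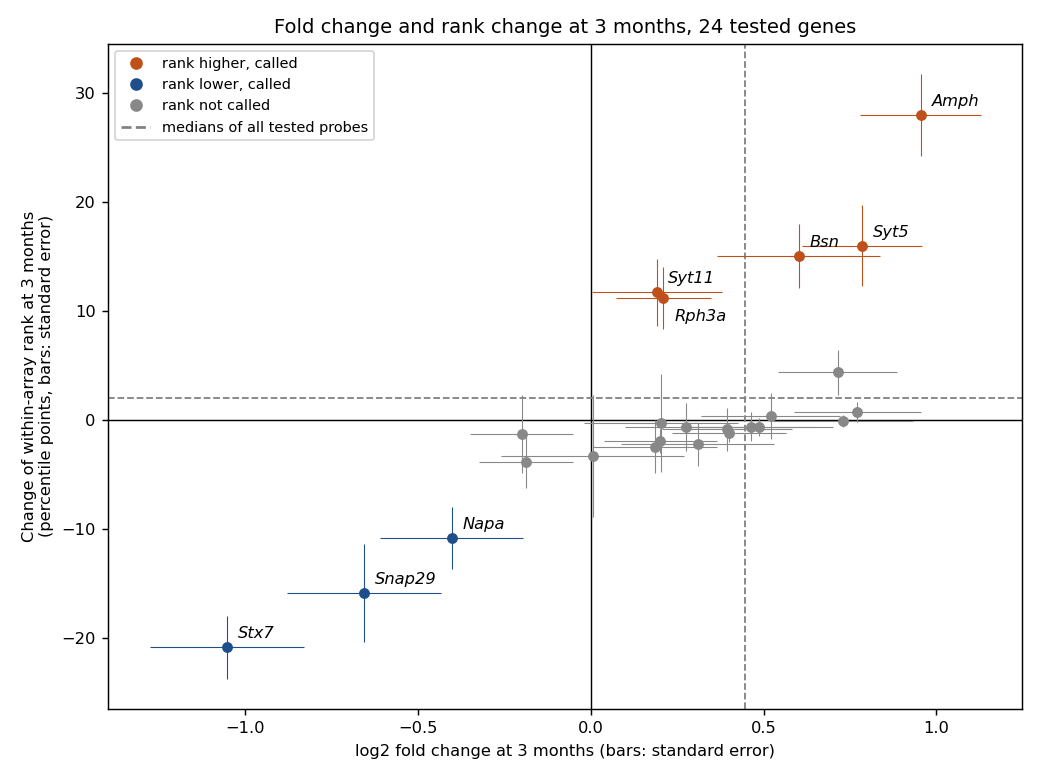
Change of within-array rank (percentile points) against log2 fold change at 3 months for the 24 tested genes, with standard errors as bars, orange for a called gain of rank and blue for a called loss; dashed lines are the medians of all tested probes (2.05 points and 0.44). Amph stands alone at 28.01 points and Stx7 at -20.8, while the gray genes gather within a few points of 0 across fold changes from -0.20 to 0.77.

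The size of the fold change rose with signal among the tested RefSeq-named probes. Each member was therefore set beside other such probes of like signal, in 4 bins of equal size by mean log2 intensity. From the dimmest bin to the brightest, 22.6%, 51.1%, 62.9% and 80.7% of the other probes were called higher, and their median log2 fold change was 0.11, 0.42, 0.54 and 0.65. Of the 24 members, 16 were under the median of their bin and 8 above it. In the brightest bin Vamp3 (0.77) and Syp (0.73) were above the median of 0.65, while Sv2b, Slc17a6, Sv2a, Nsf and Vamp2 were under it. Vamp2 had only 24 of 777 other probes below it and Nsf 52. Stx7, in the second bin, had 0 of 779 other probes below it, and Napa, in the third, had 6 of 779. Snap29 had 40 and Unc13b 47 of 779 below. At the other end, 74 of 779 probes lay above Amph, 98 above Bsn and 151 above Syt5. These positions are a description, since neither the members nor the other probes are independent replicates.

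**Figure D4:**
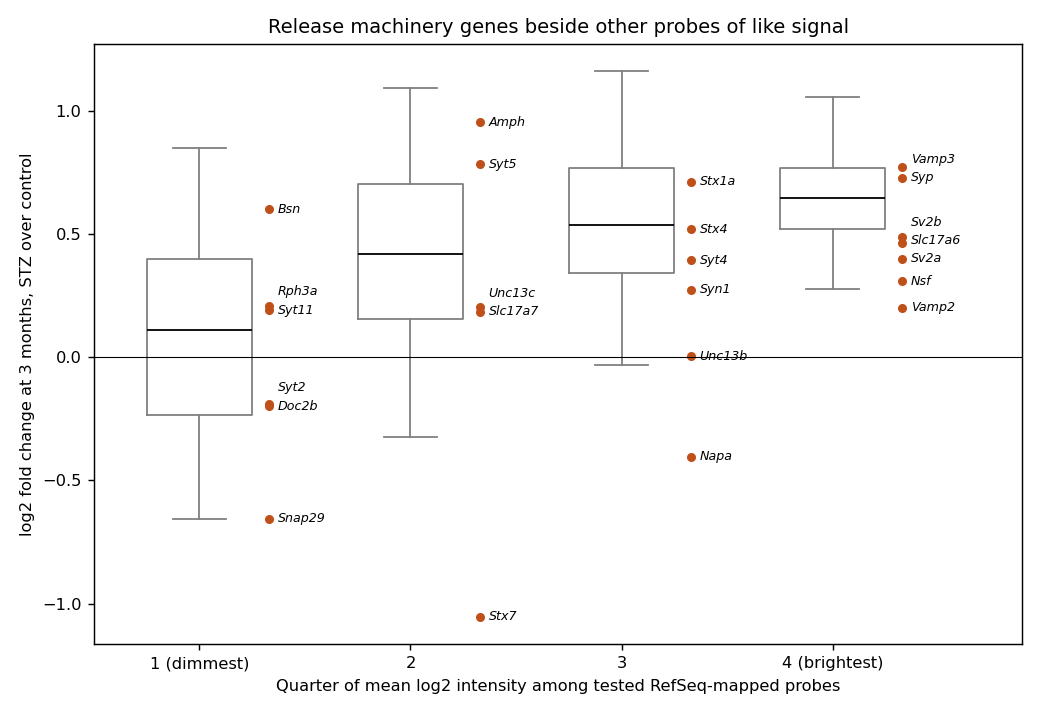
Log2 fold change at 3 months by bin of mean log2 intensity, with boxes for the middle of the other RefSeq-named probes, a black line for their median, whiskers from the 5th to the 95th percentile, and orange dots for the 24 members. The box medians climb from 0.11 to 0.65, and Stx7, Napa and Vamp2 lie under the whiskers of their bins.

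For 4 of 24 members the 3 month effect differed from the 1 month effect, where 15.5% of all tested probes differed (interaction in limma). It was more positive at 3 months by 0.97 ± 0.25 for Amph (adjusted p = 0.0231, limma), by 0.96 ± 0.28 for Stx4 (adjusted p = 0.0326, limma) and by 0.81 ± 0.25 for Syt5 (adjusted p = 0.0342, limma). For Stx7 it was more negative, by -1.27 ± 0.32 (adjusted p = 0.0206, limma). The number of such members lay between 2 and 8 as single arrays were left out, with 2 without 3 month control 3 or 3 month STZ 5 or 6 and 8 without 3 month control 6. The Vamp3 and Syt4 interactions missed the threshold, at 0.64 (adjusted p = 0.0743, limma) and 0.73 (adjusted p = 0.0568, limma).

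At 1 month, by the probe that stood for each gene, the smallest unadjusted p belonged to Stx4, Syt11 and Syt4, all lower in STZ retinas and none called. The second probes of Sv2a (0.30 ± 0.13, unadjusted limma p of 0.0351) and Syn1 (0.32 ± 0.18, unadjusted limma p of 0.0825) pointed higher and were not called either. Stx4, with the values given above, had an unadjusted limma p of 0.0379. Syt11 ran from 0.456 to 1.01 (median 0.770) in controls and from 0.351 to 0.994 (median 0.552) in STZ retinas, a difference of -0.39 ± 0.19 with overlap (unadjusted limma p of 0.0496). At 3 months it ran from 0.463 to 0.648 (median 0.600) and from 0.581 to 0.750 (median 0.665). Syt4 ran from 5.31 to 7.07 (median 6.32) in 1 month controls and from 4.61 to 5.22 (median 5.01) in STZ retinas, with every STZ retina under every control, as for 0.209% of all tested probes. Its difference was -0.33 ± 0.19 (unadjusted limma p of 0.0869). At 3 months Syt4 pointed the other way, from 2.07 to 5.42 (median 3.91) in controls and from 3.50 to 6.77 (median 4.76) in STZ retinas, with overlap. Of all tested probes 927 had an unadjusted p under 0.05 at 1 month.

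A list of 132 other genes of vesicle release, filling and retrieval, and of synapses and membrane traffic more broadly, was taken as the wider setting. Of these, 75 had a probe and 52 were tested, and at 3 months 28 rose and 1 fell, and their median was 0.45, close to the 0.44 of all tested probes. Of all tested probes 50.5% rose and 3.55% fell. On the rank scale 9 of the 52 were higher and 3 lower, where 24.1% and 6.54% of all tested probes were. The highest were Vamp5, a Vamp of muscle and endothelium, at 1.16, Nrxn2, a presynaptic neurexin, at 1.10 and Syn3, the third synapsin, at 0.91. The lowest were Rab3c, a vesicle GTPase, at -0.49 (called), Snap91, the clathrin adaptor AP180, at -0.28, and Slc18a3, the vesicular acetylcholine transporter, at -0.27 (neither called). Rab3c also lost rank (-10.2 points). At 1 month 0 of the 52 were called.

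The stretches upstream of the genes that lost rank and of Amph are shown because these 4 differed most in log2 fold change from the median of the other probes of like signal, by -1.47 (Stx7), -0.94 (Napa), -0.77 (Snap29) and 0.54 (Amph). Counted by how many other probes lay beyond each, Vamp2 was farther out than Snap29 and Amph, and Unc13b and Nsf were farther out than Amph. They are the 250 bases before the annotated start, 5′ to 3′ on the gene's strand, from RefSeq on the rat assembly GRCr8. Capitals mark CACGTG (an E-box), GGGCGG (a GC box) or TGACGTCA (a CRE), searched on both strands, and no matches overlapped.
Stx7, chr1:23056466-23056715, minus strand: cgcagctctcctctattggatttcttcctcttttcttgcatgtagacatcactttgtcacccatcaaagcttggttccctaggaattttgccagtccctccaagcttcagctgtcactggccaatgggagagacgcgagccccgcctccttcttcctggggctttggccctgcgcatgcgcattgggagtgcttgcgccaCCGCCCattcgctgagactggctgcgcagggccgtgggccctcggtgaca
Snap29, chr11:97113196-97113445, minus strand: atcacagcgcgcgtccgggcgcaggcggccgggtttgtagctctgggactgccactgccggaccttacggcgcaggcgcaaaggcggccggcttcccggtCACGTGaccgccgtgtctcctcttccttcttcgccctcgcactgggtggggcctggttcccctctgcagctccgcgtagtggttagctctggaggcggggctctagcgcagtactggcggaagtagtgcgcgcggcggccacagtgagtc
Napa, chr1:85915185-85915434, plus strand: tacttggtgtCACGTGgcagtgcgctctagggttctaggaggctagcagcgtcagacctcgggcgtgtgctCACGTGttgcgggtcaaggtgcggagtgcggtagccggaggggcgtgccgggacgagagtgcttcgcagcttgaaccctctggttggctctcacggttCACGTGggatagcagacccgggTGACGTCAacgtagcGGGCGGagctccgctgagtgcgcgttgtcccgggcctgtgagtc
Amph, chr17:50678502-50678751, minus strand: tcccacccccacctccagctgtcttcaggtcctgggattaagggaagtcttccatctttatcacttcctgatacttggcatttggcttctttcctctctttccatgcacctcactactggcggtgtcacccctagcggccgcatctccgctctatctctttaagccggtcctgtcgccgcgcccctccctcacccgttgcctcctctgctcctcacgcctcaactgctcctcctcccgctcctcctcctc
The window of Napa held 3 E-boxes, 1 GC box and 1 CRE, that of Snap29 1 E-box, that of Stx7 1 GC box, and that of Amph 0 of the 3 motifs. Over 33469 rat promoter windows of this length, 5.59% held CACGTG, 30.5% GGGCGG and 1.59% TGACGTCA. Of the 21 tested members with a window in the table, 3 held CACGTG (Napa, Nsf and Snap29), 11 held GGGCGG and 2 held TGACGTCA (Napa and Syn1). A match is a run of letters and not a measured binding site.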

How the data were processed

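Retinal RNA of 24 samples was measured on CodeLink rat whole genome arrays. The submitters' design text calls the 6 samples of a group biological replicates, while the study's animal table lists 1 control rat fewer at 1 month. Every array was kept. The authors deposited the background-subtracted intensity of each spot, made with the CodeLink software after excluding defective spots, together with these values over a per-array constant. The table of the whole series repeats them. Here the intensities of the 33911 probes, less 62 bacterial ones, were divided by the array's median rat probe, floored at 0.01 and put on a log2 scale. The software's flags were not used.

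A probe was tested if its median over 24 arrays passed the 35th percentile of all probes, which left 22025. The 4 groups, taken from the sample labels, were fitted in 1 model with limma 3.58.1 in R 4.3.3, with Benjamini-Hochberg adjustment over all tested probes. Gene members were found through RefSeq accessions, of which 4674 of 5469 matched a GRCr8 gene table (4012 symbols). Each gene was represented by its tested probe with the highest mean log2 level. Values of every group are given for the 12 members with the largest change at 3 months and the 3 with the smallest p at 1 month, and other members by their change. The 6 arrays a group limit the precision, as does signal near the detection limit. The fits were also run on simulated data, whose outcome is not given here and is not used to support any result. The 43 member symbols and the other lists were chosen with earlier results of these data known.

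The alternatives were quantile normalization, no further scaling, the series-level table, subtraction of each array's 5th percentile, a floor of 0.1, other filters, no fold limit, separate models, the replicate block, brightness or spread as a covariate, array weights, a variance trend, the methods' test (groups compared without assuming equal variances, p under 0.01 and 1.2-fold), means over probes, other rank sets and each array left out. Tests of gene sets were not made.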

Additional observations from a re-analysis of the deposited data

Results flagged for a closer look

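The effect of diabetes differed between 3 months and 1 month for Amph (0.97), Stx4 (0.96), Syt5 (0.81) and Stx7 (-1.27, all on the log2 scale) by the interaction in limma. None of these 4 was called at 1 month. They are 4 of 24 members, where 15.5% of all tested probes differed. The number of such members depended on the processing, as given below.

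In 4 of 96 sets of 6 arrays, where chance gives about 1 in 20, 1 array stood apart from the rest. For Snap29 3 month control 2 lay at a log2 scaled intensity of 1.94, with the next at 0.33. Napa on the same array lay at 2.83, with the next at 1.89, and Bsn on it lay at -3.14, with the next at -1.503. This array correlated least with its group. Syn1 lay at 2.17 in 1 month control 5, with the next at 1.49.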

How the results depend on the processing

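Higher and lower counts of members at 3 months (9 and 2) depended on how the arrays were made comparable. Higher members numbered 5 after quantile normalization (24.6% of all probes), 3 with array brightness as a covariate and 0 with array spread as a covariate. Of all 22025 tested probes, 4058 were called in either direction with brightness and 0 with spread. By the methods' test 3 members were higher (Syt5, Vamp3 and Amph), and 2 after its adjustment (Syt5 and Amph). Without single arrays 5 to 12 were higher. These were 5 without 3 month control 2 (37.6% of all probes) or 3 month STZ 5 (41.9%) and 12 without 3 month control 6 (59.2%). Counts given here without a share of all probes cannot show a change particular to the members. Lower members numbered 4, 1, 0, 0 and 0 in the first 5 of these settings and 1 with separate models (Stx7). The median of the members was -0.078 after quantile normalization and -0.18 with spread as a covariate. Quantile normalization turned 11 members below 0, namely Syp (-0.076), Vamp2 (-0.43), Sv2a (-0.19), Slc17a6 (-0.079), Syt4 (-0.088), Syn1 (-0.045), Sv2b (-0.097), Nsf (-0.198), Unc13b (-0.21), Unc13c (-0.029) and Slc17a7 (-0.16). The spread covariate turned 10, namely Stx4 (-0.20), Sv2a (-0.14), Syt4 (-0.067), Vamp2 (-0.34), Syn1 (-0.28), Sv2b (-0.37), Nsf (-0.21), Unc13b (-0.81), Unc13c (-0.46) and Slc17a7 (-0.21). Unc13b, at 0.01, also turned with the 5th percentile subtracted (-0.043), brightness as a covariate (-0.17, and Slc17a7 -0.027), array weights (-0.095) and without 3 month control 2 or 4 or 3 month STZ 2, 5 or 6 (-0.21 to 0.18 without single arrays). At 1 month array weights called 1 member (Stx4) and the methods' test without adjustment 1 (Syt4). Members whose effects differed between time points numbered 11 with array weights, 0 with spread as a covariate and 2 to 8 without single arrays. Members higher on rank numbered 2 when ranked among tested probes and 0 with spread as a covariate, where those lower numbered 0 too. Of 984 values of single genes under other settings, 865 kept direction and side of the threshold, 30 turned, 72 lost the call and 17 gained one. Same-numbered arrays of control and STZ groups correlated between -0.24 and 0.25 in their deviations, with 5 of 12 pairs over 0.1. Correlations this weak cannot show whether same-numbered rats were paired, and the sample labels do not say. A replicate block gave 8 higher members (without Sv2a), 3 lower, and 3 differing between time points. Causes were not tested. The number of arrays and dim signal for Bsn, Rph3a, Syt11 and the 10 members under the limit limit the precision.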
